A study of Mus musculus with 70 samples.

Results

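The T cell receptor complex and its coreceptors were followed through 10 genes, which are the CD3 chains Cd3d, Cd3e, Cd3g and Cd247, the coreceptors Cd4, Cd8a and Cd8b1, the kinases Lck and Zap70, and the adaptor Lat. These 10 genes were chosen by name from the 52636 genes of the count table, and 52489 of the genes in the table were matched to a symbol by their Ensembl identifier. Each was read in 68 of 70 RNA-seq libraries of blood leukocytes sorted from young adult C57BL/6J mice, with 17 libraries of T cells, 17 of B cells, 18 of Ly6Chigh monocytes and 16 of Ly6Clow monocytes (Tcells, Bcells, Ly6high and Ly6low in the labels). The sex of the mice used for these libraries was not given in the sources used here. CON mice were unstressed and housed in pairs across a divider. SUS and RES mice had been exposed for 10 days to social defeat, repeated attacks by and sensory contact with aggressive CD-1 mice, and were classed afterwards by a social interaction test as susceptible (SUS), which avoided another mouse, or resilient (RES). No group carried a transgene or a drug. T cells were gated on CD90.2, the product of Thy1, and B cells on B220, so that none of these 10 genes was used in the sort. The antibody panel held CD11b, Ly6C, Ly6G, B220 and CD90.2, and no antibody against a receptor of natural killer (NK) cells. The labels name brain as the source, while the design text and the methods describe blood, and the latter were followed. Which libraries came from one mouse is not in the labels, so cell types were compared without pairing, and p-values measure the spread between libraries.

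A T cell recognises antigen through the alpha and beta chains of its receptor, which cannot signal by themselves. They are assembled with the CD3 gamma, delta and epsilon chains (Cd3g, Cd3d and Cd3e) and with a zeta chain dimer (Cd247), whose cytoplasmic tails carry the tyrosine motifs that start the signal. CD4 and CD8 bind the MHC molecule that presents the antigen and bring the kinase Lck to the receptor. Lck phosphorylates the CD3 and zeta tails, Zap70 docks there, and Zap70 phosphorylates the scaffold Lat, on which the downstream enzymes gather. CD4 marks helper and regulatory T cells and CD8, usually a dimer of the products of Cd8a and Cd8b1, marks cytotoxic T cells.

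All 10 genes were higher in T cells than in each of the other cell types, and none of those that could be tested was called under stress in any cell type. Outside T cells, the genes fell into separate sets. Cd3d, Cd3e, Cd3g and the coreceptors were at most 3.69 CPM in every library outside T cells, while Lck reached 26.3 CPM in B cells and 95.9 CPM in Ly6Clow monocytes. Levels are counts per 1000000 counts of a library after TMM normalization (CPM), and a call needed both an adjusted p under 0.05 (edgeR's quasi-likelihood test with Benjamini-Hochberg adjustment) and a log2 fold change beyond 1 in either direction.

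The totals per library ranged from 19769835 to 67038231 counts, and from 27257572 to 46923129 in T cells. The summed CPM of 5 T cell markers (Trac, Trbc2, Bcl11b, Cd5 and Cd6, of which 4 are also in the pathway lists used further on) was 1310 to 1583 in T cell libraries and at most 7.80 elsewhere. Library 52, labelled RES B cells, and library 70, labelled RES T cells, went against their labels and were left out. That choice had been made on Cd79a and on Cd3e, which is one of the 10 genes, so the levels of Cd3e in them are no independent check. In the library labelled RES B cells, Cd3e was at 412 CPM and Cd8b1 at 506 CPM, and 9 of the 10 genes lay within the range of the T cell libraries. Cd4, at 255 CPM, lay just under it. In the library labelled RES T cells, Cd3e was at 0.143 CPM and Lck at 16.7 CPM, and all 10 genes lay within the range of the B cell libraries. No molecular identifiers were used, so intervals and limits from counts cover counting error only. A count of 0 allowed a level of up to 0.0485 to 0.166 CPM, depending on the library (3 counts).

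The 3 genes of the CD3 gamma, delta and epsilon chains lie side by side on mouse chromosome 9 (GRCm38). Cd3g (ENSMUSG00000002033) spans chr9:44969572-44980431 on the minus strand and Cd3d (ENSMUSG00000032094) chr9:44981786-44987339 on the plus strand, so that they are read away from each other from starts 1355 bases apart. Cd3e (ENSMUSG00000032093) follows at chr9:44998740-45009627 on the minus strand, 11401 bases beyond the end of Cd3d. Cd247 (ENSMUSG00000005763) is on another chromosome, at chr1:165788681-165877277 on the plus strand, and shares 3007 exonic bases with Pou2f1 on the opposite strand. Cd3e shares 135 exonic bases with the antisense gene Gm48719. Whether reads were counted by strand was not given in the sources used here, so reads from Cd247 and Pou2f1 in the shared bases may not have been told apart.

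Since the CD3 genes were high together in T cells and near 0 elsewhere, the 300 bases around their starts (250 before and 50 after, RefSeq, GRCm38.p6) are shown, with both windows of Lck, the gene with the highest levels outside T cells. Capitals mark 4 motifs of factors that act in T cells, searched on both strands: CACCTG (E-box), AGGAAGT (ETS), TGTGGT (RUNX) and CTTTGA (TCF and LEF). No match overlaps another in these windows. The windows are Cd3g at chr9:44980382-44980681 and Cd3e at chr9:45009562-45009861 on the minus strand, Cd3d at chr9:44981536-44981835 on the plus strand, and Lck at chr4:129558323-129558622 and chr4:129573592-129573891 on the minus strand.
Cd3g: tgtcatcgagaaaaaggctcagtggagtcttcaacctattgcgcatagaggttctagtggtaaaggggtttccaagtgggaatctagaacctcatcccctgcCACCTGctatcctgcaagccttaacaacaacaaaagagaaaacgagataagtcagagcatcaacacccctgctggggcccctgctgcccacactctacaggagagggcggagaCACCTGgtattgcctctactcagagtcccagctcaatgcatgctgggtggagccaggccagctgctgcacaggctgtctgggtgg
Cd3d: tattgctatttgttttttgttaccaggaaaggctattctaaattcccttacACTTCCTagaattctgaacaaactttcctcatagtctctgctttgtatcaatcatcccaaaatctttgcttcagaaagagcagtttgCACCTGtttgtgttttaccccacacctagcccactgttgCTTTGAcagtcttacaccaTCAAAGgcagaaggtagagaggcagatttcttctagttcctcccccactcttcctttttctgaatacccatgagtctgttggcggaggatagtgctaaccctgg
Cd3e: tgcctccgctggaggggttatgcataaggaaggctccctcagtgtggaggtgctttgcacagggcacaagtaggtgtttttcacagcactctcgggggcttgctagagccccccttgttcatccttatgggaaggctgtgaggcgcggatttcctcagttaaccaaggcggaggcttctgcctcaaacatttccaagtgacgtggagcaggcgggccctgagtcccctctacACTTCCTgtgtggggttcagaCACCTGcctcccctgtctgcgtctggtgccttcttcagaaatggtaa
Lck, downstream start: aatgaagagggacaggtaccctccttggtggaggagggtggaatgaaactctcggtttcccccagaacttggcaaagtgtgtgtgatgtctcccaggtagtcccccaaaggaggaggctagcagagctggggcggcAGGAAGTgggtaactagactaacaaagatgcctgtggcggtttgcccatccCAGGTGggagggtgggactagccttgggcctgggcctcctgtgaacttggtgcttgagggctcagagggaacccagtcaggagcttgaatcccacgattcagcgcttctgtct
Lck, upstream start: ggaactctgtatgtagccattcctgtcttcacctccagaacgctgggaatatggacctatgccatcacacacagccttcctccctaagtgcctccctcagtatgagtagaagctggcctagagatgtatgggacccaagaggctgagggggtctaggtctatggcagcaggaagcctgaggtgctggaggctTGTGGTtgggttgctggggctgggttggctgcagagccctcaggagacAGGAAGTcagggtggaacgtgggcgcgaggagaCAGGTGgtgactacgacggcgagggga
The reference held 11 windows for 8 of the 10 genes, and none for Cd4 and Cd8b1. The E-box letters were in 8 of the 11 windows (6 of 8 genes) against 20.2% of 32851 windows of all genes, and the ETS letters in 5 (Cd247, Cd3d, Cd3e and both of Lck) against 9.35%. The RUNX letters were in 3 windows against 16.8%, and the TCF and LEF letters in 3 against 16.0%. The window of Cd8a held none of the 4. The motifs were chosen with the matches in view, and a match of letters is a description and not a binding site.

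In T cells, the CD3 chains were high in every library. Cd3e was at 372 to 530 CPM over the 17 libraries with a median of 429, Cd3g at 387 to 658 with a median of 520, and Cd3d at 146 to 256 with a median of 196. The zeta chain gene Cd247 was at 217 to 378 CPM with a median of 288. The coefficient of variation over libraries was 12.0% for Cd3e, 13.5% for Cd3g, 15.5% for Cd3d and 15.4% for Cd247.

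The coreceptor genes are on chromosome 6. Cd4 (ENSMUSG00000023274, chr6:124864692-124888221, minus strand) was at 265 to 373 CPM in T cells, with a median of 306. Cd8b1 (ENSMUSG00000053044, chr6:71322788-71337494) and Cd8a (ENSMUSG00000053977, chr6:71373427-71379173) are neighbours on the plus strand, 35933 bases apart. Cd8a was at 337 to 590 CPM with a median of 467, and Cd8b1 at 371 to 793 CPM with a median of 569. With a coefficient of variation of 18.8%, Cd8b1 varied most of the 10 genes, and Zap70 least, with 9.48%.

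Of the signalling genes, Lck (ENSMUSG00000000409, chr4:129548344-129573641, minus strand) was at 385 to 623 CPM in T cells with a median of 482. The level of Zap70 (ENSMUSG00000026117, chr1:36761798-36782818, plus strand) was 120 to 178 CPM with a median of 147. Lat (ENSMUSG00000030742, chr7:126363824-126369570, minus strand) was at 237 to 377 CPM with a median of 300. Small exonic stretches of Lck and Lat, of 25 and 75 bases, also hold the miRNA genes Mir8119 and Mir7058.

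Per kilobase of exon, the order of median levels in T cells was Cd8b1 (383 CPM per kb), Lck (165), Cd3g (159), Cd8a (128), Lat (108.4), Cd3d (107.9), Cd3e (105), Cd4 (75.8), Cd247 (54.0) and Zap70 (49.1). Cd8b1 stood clear of the next gene in every one of the 17 libraries, without overlap of their ranges. Lck was above Cd3g in 10 of 17 libraries, Lat above Cd3d in 8 and Cd3d above Cd3e in 11, so that the order of these neighbours was within their spread. Exon lengths hold all annotated isoforms, so genes with long alternative exons are set lower on this scale.

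Outside T cells, the CD3 gamma, delta and epsilon chains and the coreceptors were low. In B cells, Cd3e was at 0 to 1.69 CPM with a median of 0.199, Cd3g at 0 to 1.02 with a median of 0.302, and Cd8b1 at 0 to 2.25 with a median of 0.597. In Ly6Chigh monocytes, Cd3e was between 0 and 0.111 CPM, and 7 of 18 libraries were at 0. Ly6Clow monocytes had Cd8b1 at 0 in 8 of 16 libraries, and at most at 0.892 CPM. Cd3d was the highest of these genes in relative terms, with medians of 1.40 CPM in B cells, 0.260 in Ly6Chigh monocytes and 0.846 in Ly6Clow monocytes.

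The signalling genes followed another order. Lck was at 9.19 to 26.3 CPM in B cells with a median of 17.1, and at 17.3 to 95.9 CPM in Ly6Clow monocytes with a median of 33.3, against at most 3.47 CPM in Ly6Chigh monocytes. Averaged over the 3 conditions, this was 3.54%, 8.25% and 0.208% of the mean in T cells. The ranges of Lck in B cells and in Ly6Chigh monocytes did not overlap, and those in B cells and Ly6Clow monocytes did. Zap70 was at 5.99 to 32.3 CPM in Ly6Clow monocytes with a median of 10.2 (8.41% of the mean in T cells), and Cd247 at 7.86 to 38.1 CPM with a median of 15.7 (6.08%). In B cells, Zap70 had a median of 1.27 CPM and Cd247 a median of 2.62 CPM, and in Ly6Chigh monocytes both medians were under 1 CPM. For Lat, the Ly6Clow monocytes gave 1.56 to 9.81 CPM with a median of 4.56 (1.55%). Every Ly6Clow monocyte library was thus above every B cell library for Zap70 and Cd247, while the ranges of Lat overlapped.

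**Figure D1:**
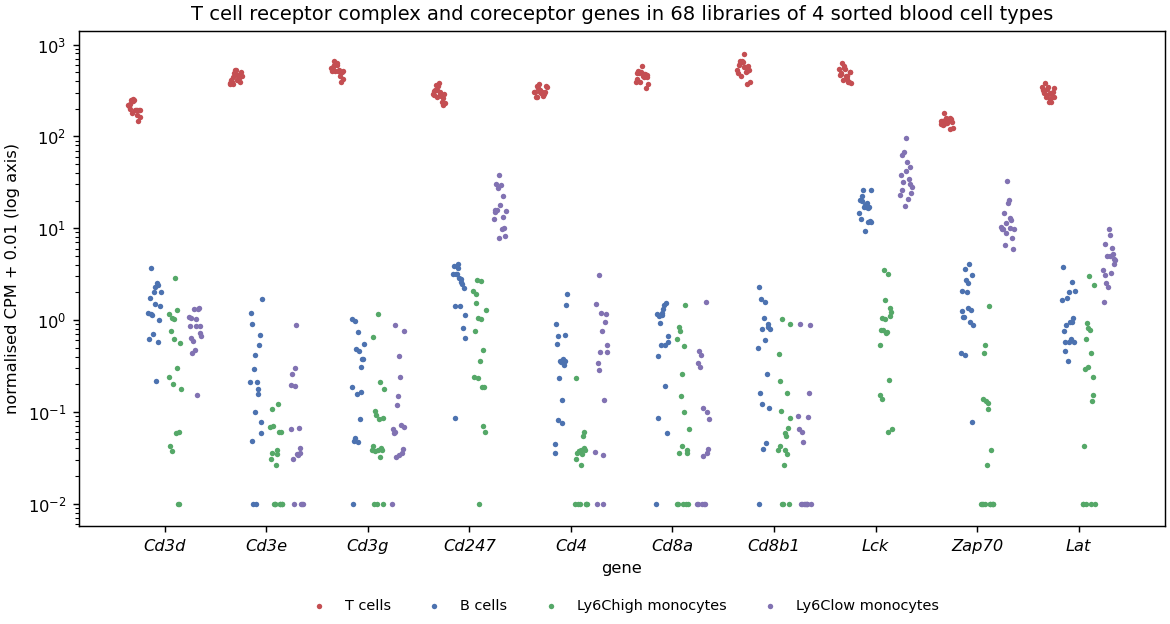
Normalised CPM (plus 0.01, log axis) of the 10 genes in each of the 68 libraries, coloured by sorted cell type, where points at the bottom are libraries with a count of 0. All T cell libraries lie above 100 CPM for every gene, and the medians of Lck, Cd247, Zap70 and Lat are higher in Ly6Clow monocytes than in Ly6Chigh monocytes.

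Across cell types, all 10 genes passed both thresholds in T cells against each other cell type. In the 68 libraries used, T cells did not overlap with any other cell type for these genes. The share of all genes without such overlap was not counted. Library 52, labelled RES B cells, lay within the T cell range for 9 of the 10 genes. Library 70, labelled RES T cells, lay within the B cell range for all 10, so the lack of overlap depends on leaving both out. Against B cells, 15.3% of the 24248 genes tested were called higher in T cells, and the 10 genes had log2 fold changes from 4.82 (SE 0.29) for Lck to 10.56 (SE 0.47) for Cd3g. Their median was 8.66, against 0.10 over all genes tested. Against Ly6Chigh monocytes, where 24.2% of genes were called higher, the log2 fold change was lowest for Cd247 (8.42, SE 0.41) and highest for Cd3e (13.72, SE 0.46), a fit that rests on 0 to 5 counts of Cd3e per monocyte library. The median was 10.36, against 0.24 over all genes. Against Ly6Clow monocytes, 17.6% of genes were called higher, and the median of the 10 was 8.45 against 0.00 over all genes. There the genes fell apart, with Zap70 at 3.59 (SE 0.36), Lck at 3.62 (SE 0.29), Cd247 at 4.06 (SE 0.36) and Lat at 6.01 (SE 0.43), and the other 6 genes between 8.02 (Cd3d) and 12.28 (Cd8b1). The highest adjusted p of the 10 genes was 5.92e-21, 3.83e-26 and 5.73e-13 in the 3 comparisons (edgeR's quasi-likelihood test with Benjamini-Hochberg adjustment). With libraries 52 and 70 kept under their labels, the log2 fold changes against B cells were 3.99 (Lck) to 7.83 (Cd3g), and all 10 genes were still called. The sort made these cell types by other surface proteins, and in bulk libraries fewer cells of a type and less RNA per cell cannot be told apart.

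The other genes of the pathway were taken from 5 lists. Over all genes tested, 15.3%, 24.2% and 17.6% were called higher in T cells and 10.7%, 18.0% and 19.1% lower, against B cells, Ly6Chigh monocytes and Ly6Clow monocytes. All 7 constant region genes of the receptor chains (Trac, Trbc1, Trbc2, Trdc, Tcrg-C1, Tcrg-C2 and Tcrg-C4) were higher in T cells than in B cells and Ly6Chigh monocytes, and 6 of 7 were higher than in Ly6Clow monocytes. The exception was Trdc, the constant region of the delta chain, at 4.42 to 29.5 CPM in T cells with a median of 10.4 and at 2.38 to 16.3 CPM in Ly6Clow monocytes with a median of 7.11. Trbc1 and Trbc2, beta chain constant regions, were also detected in every Ly6Clow monocyte library, at 5.04 to 17.0 and 1.01 to 5.53 CPM. By contrast, Trac, the alpha chain constant region, was at most at 1.06 CPM there and Tcrg-C1 at 0 in every library outside T cells. Of 17 genes of proximal signalling, 11 were higher and 1 was lower in T cells than in B cells, 12 and 1 against Ly6Chigh monocytes, and 10 and 2 against Ly6Clow monocytes. Themis, which encodes a T cell protein that tunes receptor signalling in thymocytes, had the smallest p of that list each time, at 112 to 178 CPM in T cells and at most at 0.125 CPM elsewhere. Among 15 regulators of receptor signalling, 6, 7 and 5 were higher and 2, 3 and 1 lower in T cells, in the same order of comparisons. Ptpn6, the phosphatase SHP-1 that is broadly used in blood cells, was lower in T cells than in B cells (log2 fold change -2.10, SE 0.07), Ly6Chigh monocytes (-2.22, SE 0.07) and Ly6Clow monocytes (-2.11, SE 0.07). Of 12 costimulatory and accessory receptors, 10, 11 and 12 were higher and 1, 0 and 0 lower. The 1 lower gene was Btla, which encodes an inhibitory receptor of lymphocytes, at 47.7 to 94.5 CPM in T cells and 269 to 599 CPM in B cells (log2 fold change -2.70, SE 0.16). Of 8 lineage genes of CD4 and CD8 T cells, 6, 7 and 4 were higher and 0, 1 and 1 lower. Zbtb7b, a factor of the CD4 lineage that myeloid cells also express, was the lower gene, against Ly6Chigh monocytes (-1.86, SE 0.08) and Ly6Clow monocytes (-1.78, SE 0.09).

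The signalling genes of the Ly6Clow monocyte fraction moved with NK cell markers from library to library. NK cells use Cd247, Lck, Zap70 and Lat downstream of their own activating receptors and lack a rearranged T cell receptor. The sum of 4 NK cell markers (Ncr1, Klrb1c, Klre1 and Klra8) was 126 to 579 CPM in the 16 Ly6Clow monocyte libraries, with all 4 markers detected in every library, against 2.24 to 32.4 CPM in T cells, 0.265 to 9.68 in B cells and 0.0301 to 16.8 in Ly6Chigh monocytes. The markers used for monocytes (Csf1r, Lyz2 and Cybb) summed to 6330.1 to 10244 CPM in the same libraries, and to 204 to 386 CPM in B cells. Over the 16 libraries, Pearson's r of the NK marker sum was 0.90 with Cd247 (Spearman's rho 0.94) and 0.91 with Lck (rho 0.92), with permutation p adjusted over 4 relations of 2e-05 for both. It was 0.66 with Zap70 (rho 0.66, adjusted permutation p = 0.00684 for r and 0.00937 for rho) and 0.57 with Lat (rho 0.62, 0.0196 and 0.0120). Without the 2 libraries farthest from the median of the marker sum, r was 0.91, 0.90, 0.77 and 0.50 for Cd247, Lck, Zap70 and Lat. Within CON, SUS and RES, r was 0.72, 0.97 and 0.93 for Cd247, and 0.80, 0.93 and 0.95 for Lck. It was 0.05, 0.80 and 0.87 for Zap70, so that this relation did not hold within the 4 CON libraries, and 0.66, 0.75 and 0.65 for Lat. The relation was looked for after the levels had been seen, the values share library depth and composition, and the part of NK cells in the levels was not tested. The RES library numbered 26 had the highest marker sum (579 CPM) and the highest Cd247 (38.1), Lck (95.9), Zap70 (32.3) and Lat (9.81).

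**Figure D2:**
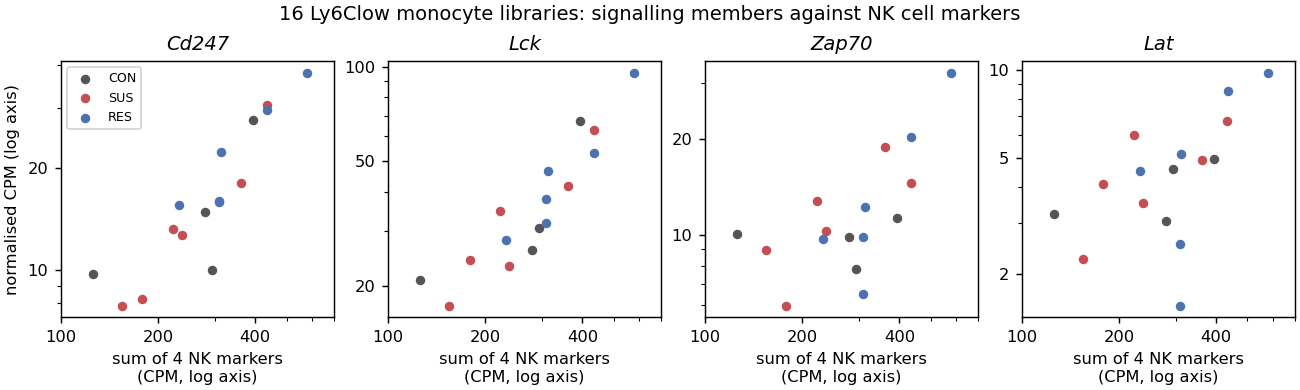
Normalised CPM of Cd247, Lck, Zap70 and Lat (y axes, log) against the summed CPM of 4 NK cell markers (x axes, log) in the 16 Ly6Clow monocyte libraries, coloured by condition. Cd247 and Lck rise along with the marker sum (r 0.90 and 0.91), and Zap70 and Lat scatter more (r 0.66 and 0.57).

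The main question of the series, how the leukocytes of CON, SUS and RES mice differ, was asked of these genes in T cells. None of the 10 genes was called in any of the 3 comparisons, and their levels overlapped between all groups. Cd3e was at 374 to 505 CPM in CON mice (median 447, n = 6) and at 382 to 530 CPM in SUS mice (median 429, n = 6). The 5 RES libraries gave 372, 408, 410, 474 and 527 CPM. Library for library, CON, SUS and RES mice covered the same span of Cd3e. Cd4 was at 265 to 373 CPM in CON mice (median 301), at 293 to 354 CPM in SUS mice (median 311), and at 271, 272, 305, 307 and 339 CPM in RES mice. Cd8b1 was at 517 to 664 CPM in CON mice (median 550), 371 to 665 in SUS mice (median 534), and 457, 500, 589, 599 and 793 in RES mice. Its range was wider in SUS and RES than in CON libraries, a difference in spread that was not tested. The 2 lowest SUS libraries, 66 and 69, were at 371 and 389 CPM, below every CON and RES library, and the other 4 were within the range of the RES libraries. The same 2 libraries were also the lowest of all 17 for Cd3d, Cd3g, Cd247, Cd8a, Lck and Zap70. In libraries 66 and 69, 37.1% and 39.6% of counts were in mitochondrial, hemoglobin and ribosomal RNA genes. Over the T cell libraries this share was 17.86% to 43.99%, and its part in the levels was not tested. Library 61, a RES library, was the highest of the 17 for Cd247, Cd8a and Cd8b1.

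The other chains and the signalling genes gave the same picture. Cd3g was at 497 to 606 CPM in CON mice (median 536), 387 to 658 in SUS mice (median 527), and 455, 499, 517, 573 and 622 in RES mice. Cd3d was at 172 to 256 CPM in CON (median 208), 146 to 246 in SUS (median 205), and 181, 196, 196, 197 and 252 in RES mice. In Cd3d, a single RES library stood apart, and the SUS libraries spread around the CON libraries on the low side. Cd247 was at 235 to 321 CPM in CON (median 289), 217 to 365 in SUS (median 310), and 263, 270, 274, 283 and 378 in RES mice. Cd8a was at 394 to 515 CPM in CON (median 465), 337 to 508 in SUS (median 445), and 395, 443, 467, 496 and 590 in RES mice. The top RES library was above all others for both genes, and the 2 lowest libraries were SUS libraries. Lck was at 395 to 552 CPM in CON (median 496), 385 to 623 in SUS (median 461), and 407, 418, 482, 502 and 548 in RES mice. For Zap70 the values were 133 to 157 CPM in CON (median 145), 120 to 178 in SUS (median 147), and 135, 145, 147, 150 and 155 in RES mice. Lat was at 237 to 341 CPM in CON (median 311), 269 to 377 in SUS (median 290), and 254, 271, 302, 306 and 348 in RES mice. The SUS libraries thus held both the lowest and the highest value of the 17 for Cd3g, Lck and Zap70, and the SD of Zap70 was 22.3 CPM in SUS mice against 8.45 in CON and 7.37 in RES mice, a difference in spread that was not tested.

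Between SUS and CON mice, 0.0265% of the 18860 genes tested were called, and 0 of the 10. Their log2 fold changes ran from -0.14 (SE 0.14) for Cd8b1 to 0.03 (SE 0.12) for Cd247, with a median of -0.03 against -0.00 over all genes. The 95% intervals of all 10 lay between -0.43 and 0.28, short of the fold threshold on both sides, and the adjusted p was 0.999 for each (edgeR's quasi-likelihood test with Benjamini-Hochberg adjustment). Between RES and CON mice, 0% of genes were called, and the 10 genes ran from -0.08 (SE 0.09) for Cd4 to 0.04 (SE 0.11) for Cd8a, with intervals between -0.31 and 0.35. Between SUS and RES mice, again with 0% of genes called, Cd8b1 was lowest at -0.17 (SE 0.15) and Cd4 highest at 0.10 (SE 0.09), with intervals between -0.48 and 0.29. In none of the 3 comparisons did a member reach an unadjusted p under 0.05, with edgeR or with DESeq2. Over all genes, edgeR gave 906, 775 and 451 genes at an unadjusted p under 0.05, and DESeq2 called 73, 17 and 6 genes. The SUS and RES comparisons share the CON libraries. The summed CPM of 6 red cell markers in T cell libraries was 888 to 2834 in CON, 1645 to 4496 in SUS and 1683 to 4646 in RES mice, and its part in the levels was not tested.

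**Figure D3:**
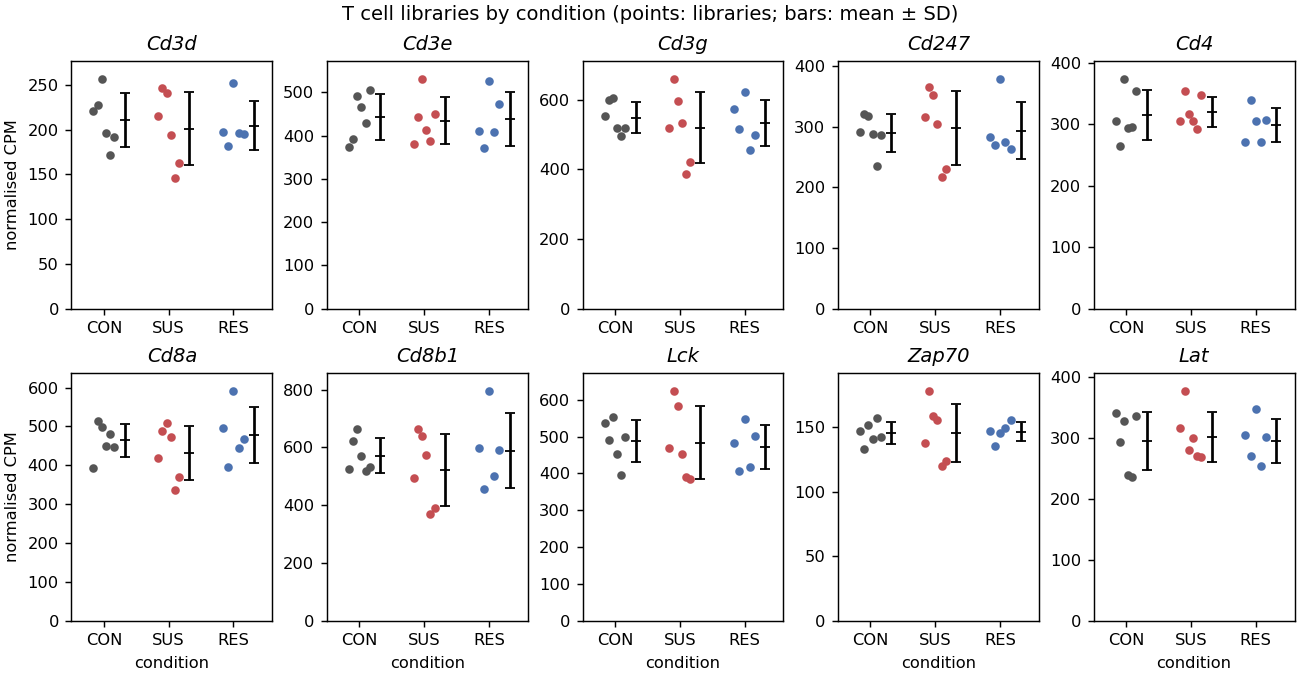
Normalised CPM (linear axes from 0) of each of the 10 genes in the 17 T cell libraries by condition, with points for libraries and bars for the mean ± SD (n = 6 CON, 6 SUS and 5 RES). The 3 conditions overlap for every gene, and the 2 lowest Cd8b1 libraries, at 371 and 389 CPM, are SUS libraries.

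**Figure D4:**
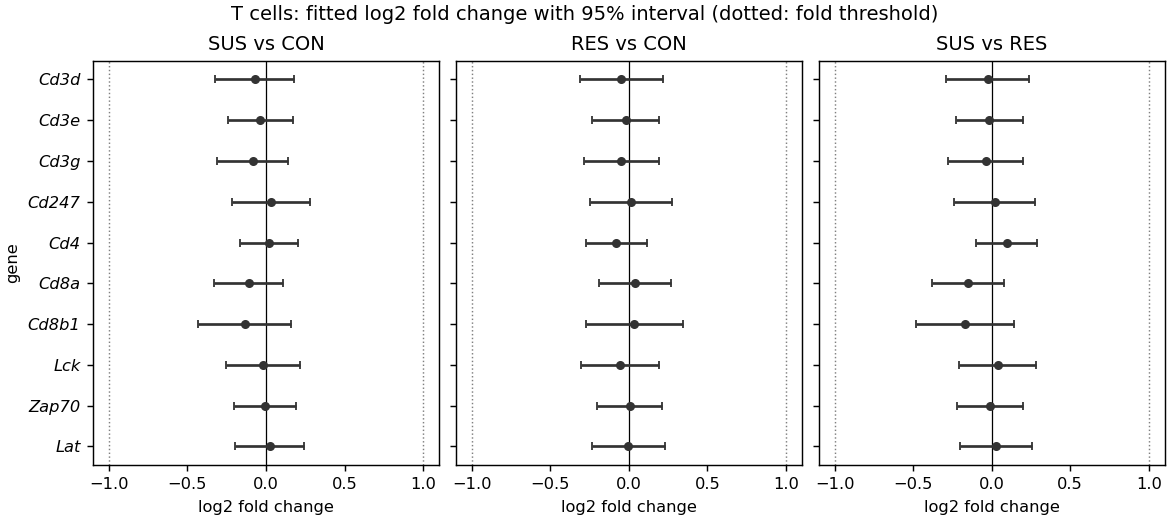
Fitted log2 fold changes (points) with 95% intervals (bars) of the 10 genes in T cells for the 3 comparisons, with dotted lines at the fold threshold of 1 in either direction. Every interval includes 0 and ends well inside the dotted lines, the widest being that of Cd8b1.

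The T cell libraries also fell into separate sets by the sum of the monocyte markers, called monocyte RNA below. In B cell libraries that sum was 204 to 386 CPM, so it was not confined to sorted monocytes. The summed CPM of the 3 monocyte markers was 68.3 to 380.0 in the 7 libraries numbered 53 to 59 and 5.09 to 9.19 in the 10 libraries numbered 60 to 69, with all 3 conditions in both sets (3 CON, 2 SUS and 2 RES, and 3, 4 and 3). Mean Cd3g was 575 CPM in the first set and 505 in the second, and mean Cd3e 410 and 459, so that these chains of one complex differed in opposite directions between the sets. With the set as a term in the fit, an alternative added after the marker sums were seen, 0 of the 10 genes were called in any comparison, and the log2 fold changes stayed between -0.17 and 0.10. The labels give no batch, and the part of monocyte RNA in these levels was not tested.

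Whether the balance of helper and cytotoxic T cell RNA moved was read from the ratio of Cd4 to Cd8a counts. On the log2 scale it was -0.57 ± 0.24 in CON (SD, n = 6), -0.42 ± 0.23 in SUS (n = 6) and -0.67 ± 0.29 in RES mice (n = 5). In linear terms, it ran from 0.516 (library 56, CON) to 0.942 (library 69, SUS). SUS libraries 66 and 69, in which Cd8a was lowest, were above every CON and RES library for this ratio, at -0.21 and -0.09 against a highest CON value of -0.34 and a highest RES value of -0.22, and the other 4 SUS libraries were within the CON range. The differences were 0.15 for SUS vs. CON (exact permutation test, two-sided, p = 0.320), -0.11 for RES vs. CON (p = 0.5, exact) and 0.25 for SUS vs. RES (p = 0.132, exact). Adjusted over 6 ratio comparisons, the exact p-values were 0.812, 0.812 and 0.792, and the smallest p that 6 against 6 libraries allow is 0.00216. Within the 7 libraries with more monocyte RNA the differences were 0.12, 0.03 and 0.09, and within the other 10 they were 0.15, -0.20 and 0.35, with no test. RES vs. CON thus had opposite signs in the sets.

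The ratio of Cd8b1 to Cd8a, the chains of the CD8 heterodimer, was steadier. It was 0.30 ± 0.12 in CON (n = 6), 0.25 ± 0.13 in SUS (n = 6) and 0.28 ± 0.10 in RES mice (n = 5) on the log2 scale, and the differences between conditions were -0.05, -0.01 and -0.03 (exact permutation tests, two-sided, adjusted p = 0.812, 0.818 and 0.813), in the order of comparisons used for the first ratio. Within the sets of 7 and 10 libraries they were -0.02 and -0.02, -0.12 and 0.08, and 0.10 and -0.10, in the same order, so that the last pairs had opposite signs.

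**Figure D5:**
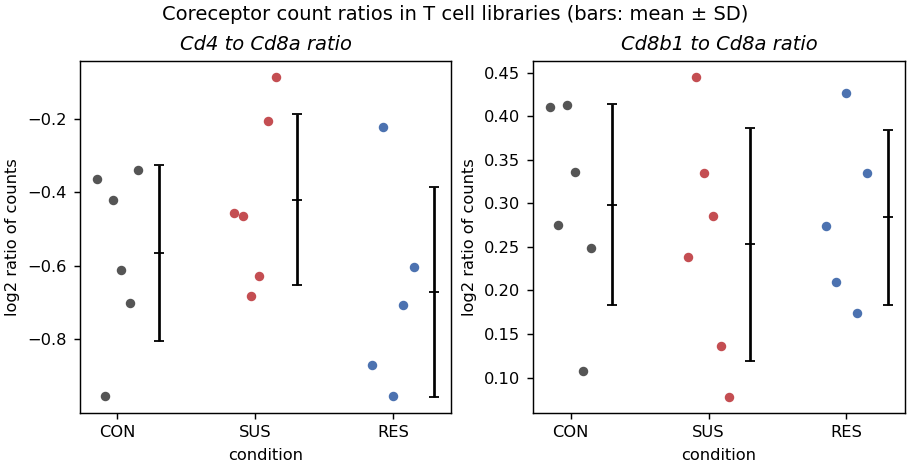
Log2 ratios of counts (y axes) of Cd4 to Cd8a and of Cd8b1 to Cd8a in the 17 T cell libraries by condition, with points for libraries and bars for the mean ± SD. The conditions overlap in both panels, and the 2 highest Cd4 to Cd8a ratios in SUS mice are -0.21 and -0.09.

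A set of 3 pairs of genes was compared across the 17 T cell libraries. Cd8a and Cd8b1 went up and down together, with Pearson's r 0.94 (permutation p = 1e-05, the smallest that 100000 resamples can give, adjusted p = 3e-05) and Spearman's rho 0.90 (adjusted permutation p = 6e-05). Without the 2 libraries farthest from the median of Cd8a, r was 0.89, and within CON, SUS and RES mice it was 0.68, 0.98 and 0.99. Within the sets of 7 and 10 libraries it was 0.90 and 0.97. Cd8a also had r 0.80 with Cd3g and 0.73 with each of Cd3d and Cd247, and genes of one library share its depth and composition. Cd4 and Cd8a showed no such relation (r -0.11, adjusted permutation p = 0.681, rho -0.05, adjusted p = 0.840), and r was -0.32 without the 2 farthest libraries, -0.09, 0.27 and -0.30 within the conditions, and -0.14 and -0.10 within the sets. For Cd3e and Cd3g, r was only 0.32 (adjusted permutation p = 0.303, rho 0.28, adjusted p = 0.406) over all 17 libraries, and 0.13 without the 2 farthest. Within the 7 libraries with more monocyte RNA it was 0.73, and within the other 10 it was 0.77, while within CON, SUS and RES it was -0.17, 0.46 and 0.52. The sets were formed after the marker sums had been seen, and r within sets and conditions is given without a test. Why r was lower over all 17 libraries was not tested.

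Genes with the most similar pattern were listed by Pearson's r, as a description. Over the 12 means of cell type and condition, the mean of Cd3d, Cd3e and Cd3g was matched most closely, among 9408 other genes, by Nsg2, Dzip1 and Izumo1r (r 0.999 each), and by Themis and Cd40lg (0.998 each). Izumo1r encodes folate receptor 4 and Cd40lg the CD40 ligand of helper T cells, and the points share library composition and fall into T cells and the rest. Over the 17 T cell libraries, among 7534 genes, Cd8a was matched by Rpl15 (0.88), Mbp (0.88), Jpt1 (0.87), Tubb5 (0.87) and Cox4i1 (0.85), all below Cd8b1 (0.94). With the other members, r of Cd8a was 0.80 (Cd3g), 0.73 (Cd3d and Cd247), 0.62 (Lck and Zap70), 0.56 (Cd3e), 0.31 (Lat) and -0.11 (Cd4). Cd4 was matched by Slc12a9 (0.74), Zfp623 (0.74), Hcfc1r1 (0.70), Selenoo (0.68) and Cog6 (0.67), and of the other members Cd3e and Lat came closest to it (0.40 each).

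None of the pathway genes passed both thresholds in T cells under stress, in any of the 5 lists (0 of 7, 17, 15, 12 and 8), with edgeR or with DESeq2. For SUS vs. CON, 1, 4, 1, 4 and 0 genes of the lists were at an unadjusted p under 0.05 with edgeR, and 1, 4, 2, 4 and 0 with DESeq2. Over all genes in that comparison, 906 of 18860 were with edgeR and 1431 of 30829 with DESeq2. Proximal signalling (4 of 17) and the costimulatory receptors (4 of 12) thus held a larger share than all genes, a difference that was not tested. The median log2 fold changes were 0.10 for the constant regions, -0.06 for proximal signalling, -0.02 for the regulators, -0.00 for the costimulatory receptors and -0.05 for the lineage genes. Icos, a costimulatory receptor of activated and follicular helper T cells, came nearest, at 0.79 (SE 0.16, adjusted p = 0.0564, edgeR's quasi-likelihood test with Benjamini-Hochberg adjustment) for SUS vs. CON and 0.60 (SE 0.17, adjusted p = 0.633) for RES vs. CON. Its adjusted p for SUS vs. CON was 0.0012 with DESeq2, 0.0187 with edgeR and no low-count filter, between 0.0296 (without the SUS library 54) and 0.164 when single libraries were left out, and 1.00 with the library labelled RES T cells kept in the fit, while its log2 fold change stayed between 0.73 and 0.87. Tnfrsf4, which encodes OX40, was at 0.88 (SE 0.27, adjusted p = 0.401) for SUS vs. CON, and Ctla4, an inhibitory receptor, at 1.12 (SE 0.37, adjusted p = 0.829) for RES vs. CON. Tcrg-C1, at 1.76 to 26.6 CPM in T cells, was at 1.12 (SE 0.50, adjusted p = 0.959) for SUS vs. CON and 0.73 (SE 0.52) for RES vs. CON.

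Smaller values were found in the other lists. In proximal signalling, Themis and Rasgrp1, which activates Ras after receptor engagement, were at -0.26 (SE 0.09, adjusted p = 0.647) and -0.23 (SE 0.09, adjusted p = 0.705) for SUS vs. CON, and Trat1, which encodes a transmembrane adaptor of the receptor, was at -0.53 (SE 0.20, adjusted p = 0.982) for RES vs. CON. The ubiquitin ligase gene Cblb was at -0.21 (SE 0.08, adjusted p = 0.766) and Pag1, a membrane adaptor that holds Csk near Lck, at -0.20 (SE 0.10) for SUS vs. CON, and Sla at 0.17 (SE 0.10) for RES vs. CON. Of the lineage genes, Eomes, a factor of cytotoxic and memory T cells, had the smallest p for SUS vs. CON, at -0.53 (SE 0.43). For RES vs. CON, 0, 1, 0, 3 and 0 genes of the lists were at an unadjusted p under 0.05 (DESeq2 0, 1, 1, 3 and 0), and for SUS vs. RES none was. Over all genes tested with edgeR, 4.11% and 2.39% were. For SUS vs. RES, the smallest p of the 5 lists belonged to Trac (0.10, SE 0.11), Themis (-0.14, SE 0.10), Sla2 (-0.29, SE 0.15), Cd226 (-0.25, SE 0.16) and Crtam (-0.17, SE 0.19).

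In B cells all 10 genes passed the low-count filter, all but Lck at 4.10 CPM or less in every library. None was called in any comparison, where 0.00568% of 17620 genes were called for SUS vs. CON and 0% for both other comparisons. Lck was at 11.6 to 22.2 CPM in CON (median 16.8), 9.19 to 25.9 in SUS (median 19.3), and 11.6, 12.1, 12.5, 17.9 and 26.3 CPM in RES mice. The groups overlapped throughout, and the log2 fold changes of Lck were 0.17 (SE 0.23) for SUS vs. CON, -0.04 (SE 0.24) for RES vs. CON, and 0.20 (SE 0.24) between SUS and RES mice. All 10 genes had a positive log2 fold change for SUS vs. CON, with a median of 0.64 against -0.00 over all genes, up to 2.08 (SE 1.06) for Cd8b1. Cd8b1 was at 0.100 to 0.597 CPM in CON (median 0.201) and at 0.0293 to 2.25 CPM in SUS mice (median 1.24), and the groups overlapped. The adjusted p was 0.999 for each gene, with 0 genes at an unadjusted p under 0.05 with edgeR and 1 with DESeq2. The fitted intervals of the 10 genes ran from -2.06 to 4.45, which is wide enough to hold changes of several fold in either direction at these low counts. For RES vs. CON the log2 fold changes lay between -0.14 (Cd3g) and 0.93 (Cd8b1), and for SUS vs. RES between -0.30 (Zap70) and 1.32 (Cd3e). The sum of 5 T cell markers in B cell libraries was 0.838 to 6.00 CPM in CON and 1.53 to 5.56 CPM in SUS mice, that of 4 NK cell markers 0.265 to 1.93 and 3.72 to 9.42 CPM, without overlap, and that of 6 red cell markers 1335 to 7885 and 3044 to 12799 CPM. Their part in the levels was not tested.

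In Ly6Chigh monocytes, where 3.45% of 16955 genes were called for SUS vs. CON, 0.997% for RES vs. CON and 0% for SUS vs. RES, only Cd3d, Cd247, Lck and Lat of the 10 genes passed the low-count filter. None of these 4 was called. Their log2 fold changes were -0.92 (Cd247) to -0.34 (Lck) for SUS vs. CON, -2.25 (Cd3d) to 0.44 (Cd247) for RES vs. CON, and -1.37 (Cd247) to 1.70 (Cd3d) for SUS vs. RES, with standard errors of 0.97 to 1.51. Of the 4 genes, 0 were at an unadjusted p under 0.05 in any comparison with edgeR, and 0, 1 and 0 with DESeq2, where the 1 was Cd3d for RES vs. CON (unadjusted p = 0.0391, adjusted p = 0.183). The other 6 genes, Cd3e, Cd3g, Cd4, Cd8a, Cd8b1 and Zap70, were at 0 to 1.45 CPM and were not tested with edgeR. DESeq2 gave none of these 6 an adjusted p for SUS vs. CON and could not call them. For RES vs. CON and SUS vs. RES only Cd8a and Cd8b1 of the 6 had one, and neither was called. With DESeq2, Cd8b1 was at 2.75 (SE 1.38, unadjusted p = 0.0469, adjusted p = 0.204) for RES vs. CON.

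In Ly6Clow monocytes, 7 of the 10 genes passed the filter (all but Cd3e, Cd3g and Cd8b1) and none was called, where 0.0871% of 19521 genes were called for SUS vs. CON, 0.0154% for RES vs. CON and 0% for SUS vs. RES. No gene was at an unadjusted p under 0.05 in any of the 3 comparisons, with edgeR or with DESeq2. Lck was at 20.9, 25.9, 30.6 and 67.2 CPM in the 4 CON libraries, at 17.3 to 63.0 CPM in SUS mice (median 29.4) and at 28.0 to 95.9 CPM in RES mice (median 42.1). Cd247 was at 9.72, 10.0, 14.8 and 27.7 CPM in CON, 7.86 to 30.6 in SUS (median 13.0) and 15.5 to 38.1 in RES mice (median 19.1). The groups overlapped for both genes, and the RES medians were the highest. Zap70 was at 7.80, 9.86, 10.1 and 11.3 CPM in CON, 5.99 to 18.8 in SUS (median 11.5) and 6.51 to 32.3 in RES mice (median 11.0). Lat was at 3.05, 3.23, 4.59 and 4.95 CPM in CON, 2.27 to 6.68 in SUS (median 4.50) and 1.56 to 9.81 in RES mice (median 4.86), so that for these 2 genes SUS and RES libraries lay on both sides of the CON libraries. For RES vs. CON, the log2 fold changes were 0.41 (SE 0.45) for Lck, 0.53 (SE 0.42) for Cd247, 0.61 (SE 0.37) for Zap70 and 0.42 (SE 0.42) for Lat, with adjusted p of 0.666 or more (edgeR's quasi-likelihood test with Benjamini-Hochberg adjustment). For SUS vs. CON they were -0.10, -0.05, 0.28 and 0.21, and for SUS vs. RES -0.51, -0.58, -0.33 and -0.21, in the same order. Of the other 3 genes tested, all at 3.05 CPM or less, the log2 fold changes ran from -1.53 (SE 1.25) for Cd4 for SUS vs. CON to 1.51 (SE 1.59) for Cd8a for SUS vs. RES. The NK marker sum was 126 to 394 CPM in CON, 154 to 433 in SUS and 232 to 579 in RES mice, and its part in these values was not tested.

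Whether the response to stress differed between cell types was tested as an interaction over all 68 libraries, with the adjusted p alone as the criterion. For T cells against B cells, 0.0949% of 24248 genes were called, and 0 of the 10. All 10 differences (SUS vs. CON in T cells minus that in B cells) were negative, from -2.21 (SE 0.88, adjusted p = 0.433) for Cd8b1 and -1.80 (SE 0.79, adjusted p = 0.550) for Cd3e to -0.17 (SE 0.59) for Lck. Cd8b1 and Cd3e were the 2 genes at an unadjusted p under 0.05, as were 7.16% of all genes (edgeR's quasi-likelihood test with Benjamini-Hochberg adjustment). The fits per cell type gave -0.14 to 0.03 in T cells and 0.17 to 2.08 in B cells. The negative signs thus restate the positive B cell values, most of them at low counts, and are no separate result about T cells. Against Ly6Chigh monocytes, 3.22% of genes were called and 0 of the 10, with 0 at an unadjusted p under 0.05 and differences from -1.56 (Cd8b1) to 0.95 (Cd247). Against Ly6Clow monocytes, 0.00412% of genes were called and 0 of the 10, with 0 at an unadjusted p under 0.05 and differences from -1.85 (Cd3g) to 1.57 (Cd4). These interactions were fitted with edgeR only.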

How the data were processed

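Blood leukocytes had been sorted into Trizol, RNA was purified with RNeasy Micro columns, and stranded total RNA libraries were made with a SMARTer kit for low input (Pico v2). As deposited, the values are raw counts per Ensembl gene that the authors made with HISAT2 on mm10 and HTSeq. The strand and multimapper settings were not given in the sources used here. Identifiers were matched to GENCODE M21.

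From the counts, genes with low counts were filtered with filterByExpr, and edgeR 4.0.16 (R 4.3.3, TMM, robust quasi-likelihood test, Benjamini-Hochberg over all genes tested) was fitted per cell type for the conditions, and over 12 group means for cell types and interactions. DESeq2 1.42.0 and the alternatives under the processing heading were compared. CPM come from 1 normalization over 68 libraries. Ratios have 0.5 counts added to each gene, and correlations used log2(CPM + 0.5) and 100000 resamples. The scripts were tested on simulated data. No 2 libraries of a group (171 pairs) had identical counts.

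The members and lists were chosen with earlier results of these data known. All members were named, and of each list the genes called under stress or, failing that, those with the 2 smallest p. Genes named beyond this (Themis, Ptpn6, Zbtb7b, Btla, Trdc, Trbc1 and Trbc2 across cell types, and those of the other cell types in the closing observations) were chosen after their values were seen. A further gene of the monocyte list is not reported here and was left out of its sum.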

Additional observations from a re-analysis of the deposited data

Results flagged for a closer look

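Of 126 groups of libraries (10 genes, 4 cell types and 3 conditions, and the ratios) examined by Dixon's criterion, 15 held a single library far from the rest, and chance gives about 1 in 20. In T cells there were 3. Cd3d and Cd247 were at 251.8 and 377.7 CPM in the RES library 61, with the nearest other RES library at 197.1 and 282.5, and Cd247 was at 234.7 CPM in the CON library 65, with the nearest at 286.9. The same RES library was the highest of the RES libraries for Cd3e, Cd3g, Cd8a, Cd8b1, Lck and Lat too.

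The other 12 concern genes near the limit of detection in monocytes. In Ly6Clow monocytes, Cd3e was at 0.8774 CPM in the RES library 26, which also had the highest NK marker sum, Cd3g at 0.7551 CPM in the RES library 34 and 0.2288 CPM in the CON library 29, and Cd8b1 at 0.8806 CPM in the SUS library 33. In Ly6Chigh monocytes, Cd3g was at 0.6443 CPM in the SUS library 2 and 1.148 CPM in the RES library 9, Cd4 at 0.2252 CPM in the RES library 3, Cd8a at 0.7442 CPM in the RES library 6, and Cd8b1 at 0.2049 CPM in the CON library 4. Zap70 was at 0.5231, 0.4252 and 1.399 CPM in single Ly6Chigh libraries (CON 7, SUS 5 and RES 12). In Ly6Chigh monocytes a different library stood apart in each of these cases.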

How the results depend on the processing

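The calls for the 10 genes were the same under every alternative run (DESeq2, edgeR with DESeq2's scaling, all genes without a filter, another library size, other fits, each library left out, and all libraries under their labels): all 10 genes higher in T cells and none of those with an adjusted p called under stress. DESeq2 gave no adjusted p to some of the genes in monocytes and could not call them there. In Ly6Chigh monocytes these were all 10 for SUS vs. CON, and Cd3e, Cd3g, Cd4 and Zap70 for both other comparisons. In Ly6Clow monocytes they were Cd3d, Cd3e, Cd3g, Cd4, Cd8a and Cd8b1 for RES vs. CON. Over all genes, DESeq2 called more than edgeR for stress. For SUS vs. CON it called 73 against 5 genes in T cells, 38 against 1 in B cells and 102 against 17 in Ly6Clow monocytes, and for RES vs. CON 17 against 0, 15 against 0 and 31 against 3, with 511 against 169 in Ly6Chigh monocytes. Between SUS and RES mice it called 6 in T cells, 20 in Ly6Chigh monocytes and 6 in Ly6Clow monocytes against 0 each. With libraries 52 and 70 kept, edgeR called 0 genes in T cells and B cells, and the interactions went from 23, 780 and 1 to 8, 495 and 0 genes against B cells, Ly6Chigh and Ly6Clow monocytes. No paired analysis was possible because the library numbers in the labels are not shared between groups.

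None of the log2 fold changes whose direction changed was called. With libraries 52 and 70 under their labels, T cell values for RES vs. CON became -0.25 for Cd247, -0.23 for Cd8a, -0.23 for Cd8b1 and -0.25 for Zap70, for SUS vs. CON 0.0052 for Zap70, and for SUS vs. RES 0.25 for Cd3d, 0.26 for Cd3e, 0.24 for Cd3g, 0.13 for Cd8a, 0.10 for Cd8b1, 0.26 for Zap70, 0.13 for Themis, 0.015 for Cd226, 0.10 for Crtam and 0.12 for Nkg7. In B cells they became 8.01 for Cd3g and 2.30 for Lck (RES vs. CON) and -6.72 for Cd3e and -2.13 for Lck (SUS vs. RES). The Cd4 to Cd8a ratio differed by 0.12 for RES vs. CON and the Cd8b1 to Cd8a ratio by 0.043 for SUS vs. RES, and r became 0.99 for Cd4 with Cd8a and 1.00 for Cd3e with Cd3g, both now past the threshold (adjusted permutation p = 0.0376 and 0.00859), since the library labelled RES T cells lies near 0 for all 4 genes. With only the groups compared in the fit, Zap70 was at 0.0068 for SUS vs. CON. With the monocyte marker sets as a term, an alternative chosen after seeing the data, Lck was at 0.0052 for SUS vs. CON and Lat at 0.025 for RES vs. CON.

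Leaving out single libraries turned the sign of these values, given as ranges. In T cells for SUS vs. CON, they were -0.14 to 0.0068 for Cd3d, -0.10 to 0.0027 for Cd3e, -0.039 to 0.11 for Cd247, -0.024 to 0.077 for Cd4, -0.11 to 0.044 for Lck, -0.074 to 0.048 for Zap70 and -0.053 to 0.070 for Lat. For RES vs. CON, they were -0.58 to 0.069 for Eomes, -0.13 to 0.022 for Cd3d, -0.092 to 0.030 for Cd3e, -0.10 to 0.00057 for Cd3g, -0.090 to 0.049 for Cd247, -0.045 to 0.10 for Cd8a, -0.093 to 0.11 for Cd8b1, -0.015 to 0.032 for Zap70 and -0.064 to 0.043 for Lat. For SUS vs. RES, they were -0.19 to 0.75 for Tcrg-C1, -0.24 to 0.060 for Nkg7, -0.094 to 0.067 for Cd3d, -0.082 to 0.066 for Cd3e, -0.12 to 0.037 for Cd3g, -0.051 to 0.13 for Cd247, -0.051 to 0.10 for Lck, -0.079 to 0.043 for Zap70 and -0.049 to 0.10 for Lat. In B cells, they were -1.38 to 0.27 for Cd3g and -0.30 to 0.065 for Lck (RES vs. CON), and -0.57 to 0.053 for Zap70 (SUS vs. RES). In Ly6Chigh monocytes, Lck was at -0.61 to 0.65 for SUS vs. CON. In Ly6Clow monocytes, they were -0.38 to 0.38 for Cd247, -0.088 to 3.46 for Cd8a and -0.37 to 0.39 for Lck (SUS vs. CON), -0.99 to 0.87 for Cd4 (RES vs. CON), and -0.062 to 2.05 for Cd8a, -0.51 to 0.042 for Zap70 and -0.41 to 0.054 for Lat (SUS vs. RES). The difference of the Cd8b1 to Cd8a ratio was -0.053 to 0.013 for RES vs. CON and -0.069 to 0.0048 for SUS vs. RES. Outside T cells, the depth limits what can be read of Cd3e, Cd3g, Cd4, Cd8a and Cd8b1, which often had 0 to a few counts per library.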

Other observations

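Pathway genes other than the 10 members were also read in the sorted cells that are not T cells, where they serve other receptors. In Ly6Chigh monocytes, Malt1, a protease of antigen receptor signalling, had a log2 fold change of -0.75 for SUS vs. CON (SE 0.18, adjusted p = 0.0082) and of -0.77 for RES vs. CON (SE 0.18, adjusted p = 0.0206). Ptprc, which encodes the phosphatase CD45 of all leukocytes and of which B220, an antigen of the sort, is an isoform, was at -0.62 (SE 0.15, adjusted p = 0.00757) and -0.62 (SE 0.15, adjusted p = 0.0225) in the same comparisons, and for SUS vs. CON Nfatc2 was at -0.68 (SE 0.18, adjusted p = 0.0128) and the inhibitory receptor gene Btla at -0.94 (SE 0.23, adjusted p = 0.00827). These adjusted p are from edgeR's quasi-likelihood test with Benjamini-Hochberg adjustment, and all of these changes were smaller than the fold threshold of 1, so that none was called. In the same cells, 2139 of 16955 genes were at an adjusted p under 0.05 for SUS vs. CON, whatever their fold change, and 842 for RES vs. CON. Both thresholds together were passed by 3.45% of all genes for SUS vs. CON. The red cell marker sum was 343 to 1215 CPM in CON and 1097 to 8988 CPM in SUS libraries. Its part in these values was not tested.

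In B cells, Nkg7, which encodes a granule protein of cytotoxic lymphocytes, was at 2.28 (SE 0.58, adjusted p = 0.440) for SUS vs. CON and 2.28 (SE 0.59, adjusted p = 0.886) for RES vs. CON, and Eomes at 2.40 (SE 0.78) and 2.19 (SE 0.79) with adjusted p near 1.00. The NK marker sum in B cells was 0.265 to 1.93 CPM in CON, 3.72 to 9.42 in SUS and 2.04 to 9.68 in RES libraries, and its part in these values was not tested.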
